A study of Homo sapiens with 8 samples.

Results

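Distal intergenic open regions were the stretches of accessible chromatin that lay outside every annotated gene and more than 50 kb from the nearest start of a protein-coding transcript. They were obtained by merging the overlapping ATAC-Seq peaks of 8 libraries on chromosomes 1 to 22, keeping the regions with a peak in at least 2 libraries, and applying the GENCODE 44 annotation of GRCh38/hg38. Of 59800 such regions, 6694 (11.2%) were distal intergenic, against 22137 intronic regions, 16284 promoter regions within 1 kb of a coding start, 8135 other intergenic regions and 6550 exonic regions. The choice named no line and no strength, but it also kept regions open in the 2 libraries of 1 line alone.

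ATAC-Seq uses the Tn5 transposase to cut and tag chromatin that is not packed into nucleosomes. The libraries came from HEK293T, a human embryonic kidney line in wide laboratory use, in which 4 stable lines had been made by lentiviral infection and blasticidin selection. Each line had 2 libraries, and the added construct was EZH2 WT in the first line, Y641F in the second, A677G in the third and the double mutant H689A/F667I in the fourth. Each construct was added to cells that have their own wild-type EZH2, so the WT line is itself a line that carries added EZH2. The study describes the selected cells as monoclonal populations, and a property of a clone cannot be told apart from an effect of its construct. EZH2 is the methyltransferase of the Polycomb repressive complex and places a repressive methyl mark on histone H3. The study asked how its mutants alter chromatin accessibility. It classes Y641F with A677G as gain of function (GOF), and the double mutant as loss of function (LOF). The study calls the 2 libraries of a line independent biological replicates, and the tests measure the spread between these libraries.

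Open chromatin far from genes commonly marks enhancers, which act on promoters over long distances by DNA looping, and sites of CTCF, the zinc-finger protein that anchors loops and insulates neighbouring domains. Enhancers of developmental regulators often lie in gene deserts, long stretches of sequence without coding genes. Distal sites are more particular to a cell type than promoters are, and Polycomb complexes act on many developmental genes.

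The sequences below show what distal regions with and without a CTCF motif look like. Each is the 300 bases around the centre of the peak with the highest fold in the region, on the forward strand of hg38, and capitals mark a match to the CTCF consensus on either strand. Regions open in all 8 libraries were ordered by the mean of their ranks by fold within each library, where fold is the pileup of a peak relative to its local background. None of the first 10 held the consensus, and the first 2 that did were the 19th and 48th. They lay between the coding starts of SYT13, a synaptotagmin, and CHST1, and between LMO7 and KCTD12.

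SYT13 to CHST1, chr11:45340167-45340466: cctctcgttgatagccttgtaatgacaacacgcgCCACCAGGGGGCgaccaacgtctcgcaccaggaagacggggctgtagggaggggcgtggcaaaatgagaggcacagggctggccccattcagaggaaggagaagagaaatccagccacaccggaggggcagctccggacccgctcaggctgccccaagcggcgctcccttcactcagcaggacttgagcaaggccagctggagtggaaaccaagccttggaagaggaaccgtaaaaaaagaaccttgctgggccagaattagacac
LMO7 to KCTD12, chr13:76473554-76473853: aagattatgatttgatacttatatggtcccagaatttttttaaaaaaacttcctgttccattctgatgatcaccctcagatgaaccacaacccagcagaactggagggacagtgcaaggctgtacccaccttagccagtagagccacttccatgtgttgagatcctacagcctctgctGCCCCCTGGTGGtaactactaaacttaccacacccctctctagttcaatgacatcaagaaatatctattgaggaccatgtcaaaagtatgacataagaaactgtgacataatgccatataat

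The motif spanned bases 35 to 46 and 179 to 190 of these windows. Over the 8 libraries the fold ranged from 4.42 to 7.94 in the first region and from 4.56 to 6.95 in the second.

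The strongest regions looked different. The region first in the order, at chr17:22521273-22521588, matched the mitochondrial genome over 188 bp at 89.4% identity and is not shown. The 2 next in rank held no CTCF match. The window between EPHA3 and PROS1 near the centromere of chromosome 3 was rich in A and T, with a GC content of 22%. The window between ZNF337 and DEFB115, near the centromere of chromosome 20, had a GC content of 56.7% and a near-identical copy elsewhere in the genome.

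EPHA3 to PROS1, chr3:93470434-93470733: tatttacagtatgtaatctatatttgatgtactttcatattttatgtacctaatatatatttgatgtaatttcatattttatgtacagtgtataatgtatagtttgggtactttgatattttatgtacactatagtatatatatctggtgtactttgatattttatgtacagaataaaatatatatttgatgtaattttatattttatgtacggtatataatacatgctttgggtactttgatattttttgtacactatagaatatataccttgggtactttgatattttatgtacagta
ZNF337 to DEFB115, chr20:30580001-30580300: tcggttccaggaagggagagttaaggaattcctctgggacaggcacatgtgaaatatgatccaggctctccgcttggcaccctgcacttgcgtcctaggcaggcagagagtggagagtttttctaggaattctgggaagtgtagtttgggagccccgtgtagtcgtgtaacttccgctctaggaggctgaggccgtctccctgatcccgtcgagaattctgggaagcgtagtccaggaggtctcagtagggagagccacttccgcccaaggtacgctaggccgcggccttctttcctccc

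The fold in the first of these lay between 15.3 and 15.5 in all 8 libraries, the narrowest spread among the 10 strongest regions (SD 0.0800, n = 8). In the second it lay between 6.48 and 8.18.

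The next sequence is from a region with one of the highest folds among those found in every WT and LOF library and in none of the 4 GOF libraries. It lay between NTRK2, which encodes the receptor of the neurotrophin BDNF, and AGTPBP1, and did not hold an exact match to the CTCF consensus. Only exact matches were counted, and this window holds a string that differs from the consensus in its last base alone.

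NTRK2 to AGTPBP1, chr9:85332534-85332833: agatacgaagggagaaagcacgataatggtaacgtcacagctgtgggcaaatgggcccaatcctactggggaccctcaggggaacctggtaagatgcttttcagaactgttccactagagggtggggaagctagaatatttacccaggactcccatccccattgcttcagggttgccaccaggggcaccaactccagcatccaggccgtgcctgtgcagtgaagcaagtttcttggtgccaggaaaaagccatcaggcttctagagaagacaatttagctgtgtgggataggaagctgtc

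The last sequence is from a group that came up after the values were seen, the distal regions that lie on a transfer RNA (tRNA) gene. Here capitals mark the part of the gene TRG-CCC4-1 (chr1:16678271-16678341, 71 bp) that falls in the window. The region was the 47th in the same order, with a fold from 4.51 to 7.99.

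NBPF1 to CROCC, chr1:16678038-16678337: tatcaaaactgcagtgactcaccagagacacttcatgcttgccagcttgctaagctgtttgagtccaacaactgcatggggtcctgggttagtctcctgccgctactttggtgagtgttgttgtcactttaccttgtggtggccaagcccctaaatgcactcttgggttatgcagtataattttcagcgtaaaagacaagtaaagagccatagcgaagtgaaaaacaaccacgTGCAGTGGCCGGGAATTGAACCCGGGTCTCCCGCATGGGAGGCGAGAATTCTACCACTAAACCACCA

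Distal regions were fewer in every mutant library than in either WT library. The WT libraries held 5623 and 5525 open distal regions, Y641F 1894 and 2798, A677G 2837 and 3649, and H689A/F667I 3860 and 4078. The 4 GOF libraries lay below all 4 others, and Y641F was lowest. As means, these were 5574 ± 69.3 for WT, 2346 ± 639 for Y641F, 3243 ± 574 for A677G and, for LOF, 3969 ± 154 (SD, n = 2 each). The GOF libraries were lower than the WT and LOF libraries by a mean log2 difference of -0.79 (exact two-sided permutation test, p = 0.0286, the smallest that 70 assignments allow, adjusted p = 0.1 over the 7 measures tested). A comparison of a single mutant with WT cannot give a p below 0.333 with 2 libraries against 2. With the line as the unit, 2 GOF lines against 2 other lines have the same limit.

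The peak lists as a whole ranged from 25423 peaks in Y641F replicate 1 to 62739 in WT replicate 1, and the regions of all classes open per library from 22767 to 52281. Distal regions made up 10.8% and 10.7% of the open regions in WT, 8.32% and 8.79% in Y641F, 8.44% and 9.26% in A677G and, in LOF, 9.27% and 9.66%. The GOF mean was 8.70% against 10.1%, a difference of -1.39 percentage points (exact permutation p = 0.0286, adjusted p = 0.1). The share also changed with the length of the lists. When each library was cut to its 25423 peaks of highest −log10 p, distal regions numbered 1553 to 1802 per library and their share lay between 6.88% and 7.65%, with Y641F highest, and the GOF difference was 0.0491 points (exact permutation p = 0.83).

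**Figure D1:**
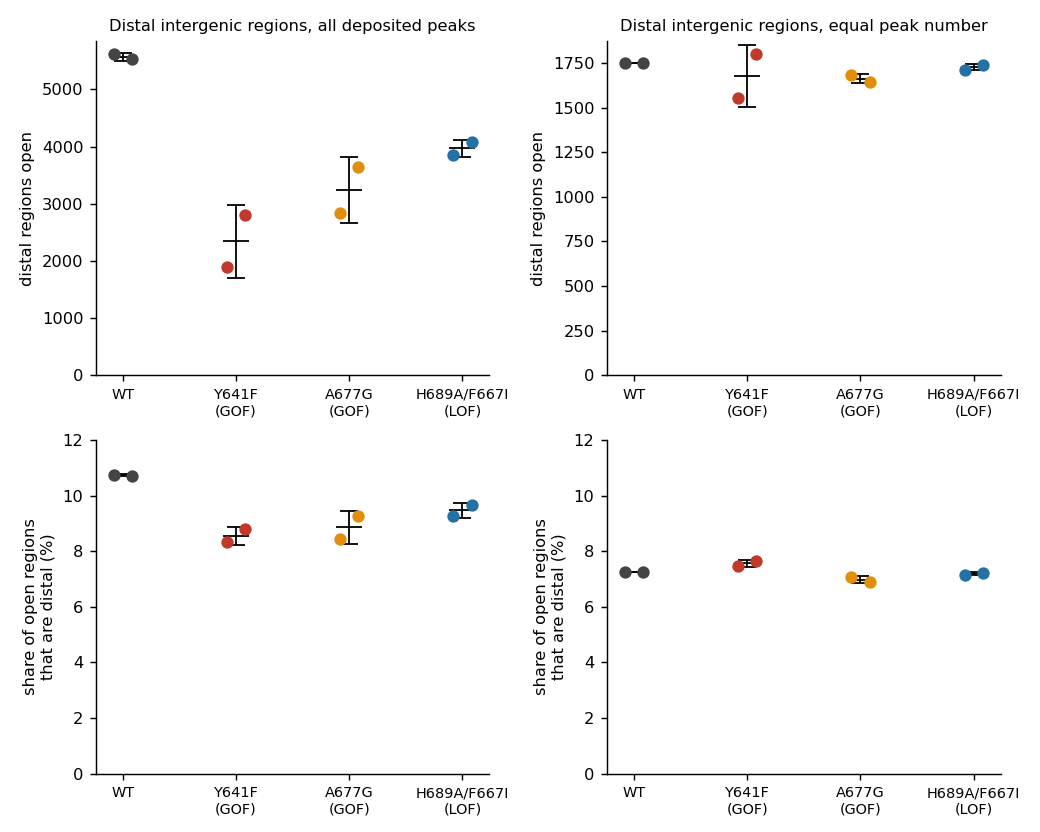
Number of open distal intergenic regions (top, count) and their share of all open regions (bottom, %) for each library, with all deposited peaks (left) and with the same number of peaks in each library (right). Points are libraries and bars are mean ± SD (n = 2). With all peaks the 4 GOF libraries sit below the other 4, from 1894 to 3649 regions, and with equal lists all 8 libraries sit between 1553 and 1802.

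Distal peaks were narrower than promoter peaks in all lines. Their median width was 450 and 449 bp in WT, 374 and 399 bp in Y641F, 366 and 378 bp in A677G and, in LOF, a mean of 395.5 ± 4.95 bp (SD, n = 2). The GOF libraries differed from the others by -43.2 bp on average, with 1 GOF and 1 LOF library at the same width (exact permutation p = 0.0857, adjusted p = 0.15). Median fold was 3.90 and 3.94 in WT, 3.74 and 3.81 in Y641F, 3.87 and 3.73 in A677G and, in LOF, 3.88 and 3.86, a GOF difference of -0.11 (exact permutation p = 0.0571, adjusted p = 0.133). Median −log10 p, the caller's measure of how far a peak stands above background, ran from 5.20 to 5.69 and did not separate the groups (exact permutation p = 0.171, adjusted p = 0.2). Promoter peaks had median widths of 676 to 1040 bp and a median fold of 3.86 to 4.03.

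The cut to equal lists removed the weaker peaks of the longer WT and LOF lists and none of Y641F replicate 1. The cut itself raised the median fold, width and −log10 p of WT and LOF, so the values after it are given as a description and not as a test. The median fold of distal peaks was then 4.94 and 4.96 in WT, 3.89 and 4.18 in Y641F, 4.30 and 4.42 in A677G and, in LOF, 4.61 and 4.60. Median width was 536 and 543 bp in WT, 383 and 393.5 bp in Y641F, 380 and 408.5 bp in A677G, and 409 and 432.5 bp in LOF. The 1137 distal regions open in every library are the same regions in each, with all peaks kept. Their median fold was 4.69 and 4.68 in WT, 3.99 and 4.21 in Y641F, 4.32 and 4.37 in A677G and, in LOF, 4.44 and 4.48, without overlap between GOF and the rest. The same value was not taken for the other classes, so whether this difference is particular to distal regions was not tested.

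Most distal regions were open in part of the libraries. A peak was found in exactly 2 libraries for 1832 regions (27.4%) and in all 8 for 1137 (17.0%), whereas 65.8% of promoter regions and 13.9% of intronic regions were open in all 8. Median width was 469 bp for regions open in 2 libraries and 979 bp for those open in 8, and median fold 3.38 and 4.39. The width is that of all overlapping peaks merged, so it grows with the number of libraries by construction. A further 5891 distal regions had a peak in 1 library only and were outside the rule, with a median width of 296 bp and a median fold of 3.19. Of the 6694 regions, 719 (10.7%) were open in both WT libraries and in no mutant library, against 6.83% over all classes, 9% of introns and 1.97% of promoters. The corresponding numbers were 21 for Y641F alone (0.314%, against 0.196% over all classes), 13 for A677G alone (0.194%, against 0.264%) and 40 for H689A/F667I alone (0.598%, against 0.617%).

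**Figure D2:**
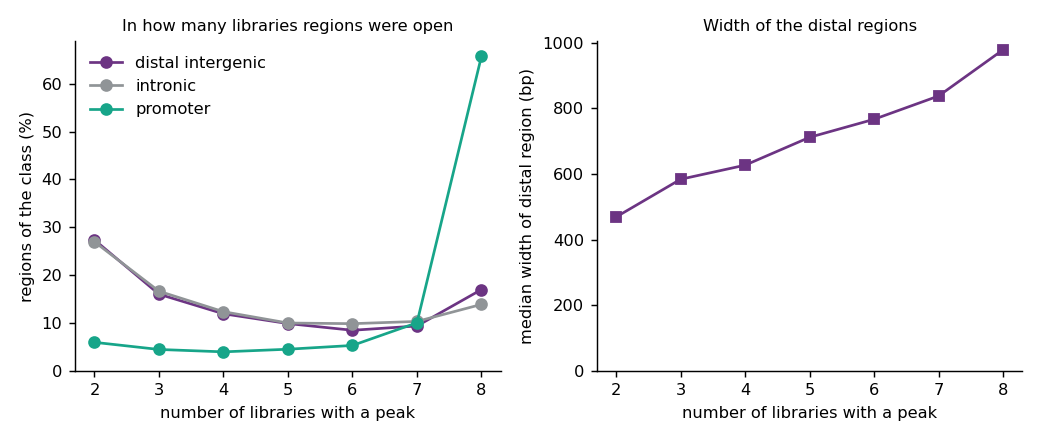
Left, percent of distal intergenic, intronic and promoter regions against the number of libraries with a peak. Right, median width of distal regions (bp) against the same number. Distal regions follow intronic regions, with 27.4% in 2 libraries and 17.0% in 8, and the merged width goes from 469 to 979 bp.

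The replicates of a line shared fewer distal regions than promoters. Of the distal regions open in either WT library, 76.9% were open in both, and this share was 47.0% in Y641F, 51.7% in A677G and, in LOF, 57.5%. For promoters it was 94.5%, 81.8%, 88.0% and 89.8%, in the same order of lines.

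Loss was described for the 4847 distal regions open in both WT libraries, a lost region being without a peak in both libraries of a mutant. In Y641F 2268 of them were lost (46.8%, 95% Wilson interval 45.4 to 48.2), against 35.2% over all classes of region. In A677G 1553 were lost (32.0%, 30.7 to 33.4), against 20.8% over all classes. In H689A/F667I 1085 were lost (22.4%, 21.2 to 23.6), against 14.1% over all classes. The 719 regions open in both WT libraries and in no mutant library met the rule through WT alone and count as lost in every mutant. Asking for a peak in at least 3 libraries, which leaves them out, gave losses of 37.5%, 20.2% and 8.87% in Y641F, A677G and H689A/F667I. The intervals given above, like the others given for shares, cover counting error only. A region without a called peak may still hold reads, and the read depth of the libraries is unknown. The counts depend on how many libraries enter. With 1 mutant library left, a region is lost if closed in that library alone, so the share rises by construction. It was 50.3% in A677G without A677G replicate 2 and 35.8% in H689A/F667I without H689A/F667I replicate 2. Without 1 WT library, regions open in WT alone no longer meet the rule of 2 libraries. The share lost in H689A/F667I was then 12% without WT replicate 1 and 12.7% without WT replicate 2. Across the 4 pairs of 1 WT and 1 mutant library the share of closed regions varied with an SD of 8.38 points for Y641F, 6.47 for A677G and, for LOF, 1.72.

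Distal regions were close to intronic regions in this respect and far from promoters. Intronic regions lost 48.5%, 29.9% and 20.8% in Y641F, A677G and H689A/F667I, and promoters 13.7%, 5.99% and 3.82%. The classes also differed in WT peak size, taken as −log10 p times width, with a median of 2851 for distal, 2809 for intronic and 11581 for promoter regions. When the other classes were weighted to the WT sizes of the distal regions in 10 strata, promoters lost 48.3% in Y641F, above the 46.8% of distal regions. In A677G distal regions stayed above every class at equal WT size, by 2.45 points over introns and 6.43 points over promoters, with the distal share higher in 9 and 10 of the 10 strata. In H689A/F667I the margins were 1.71 and 5.11 points, with the distal share higher in 8 and 10 strata. These margins depend on the WT pair, on the peaks kept and on the number of libraries asked for. Without WT replicate 1 the unweighted margin over introns went from 2.15 to -0.00228 points in A677G and from 1.61 to -0.394 points in H689A/F667I. With peaks of −log10 q of at least 5 it was -0.72 points in A677G and 0.047 points in H689A/F667I. Regions open in both WT libraries and in no mutant library count as lost by the rule. They made up 10.7% of distal, 9% of intronic and 1.97% of promoter regions. Asking for at least 3 libraries, which leaves them out, gave an unweighted margin over introns of 0.57 points in A677G and -0.315 in H689A/F667I. The weighted margins were not computed under that rule.

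**Figure D3:**
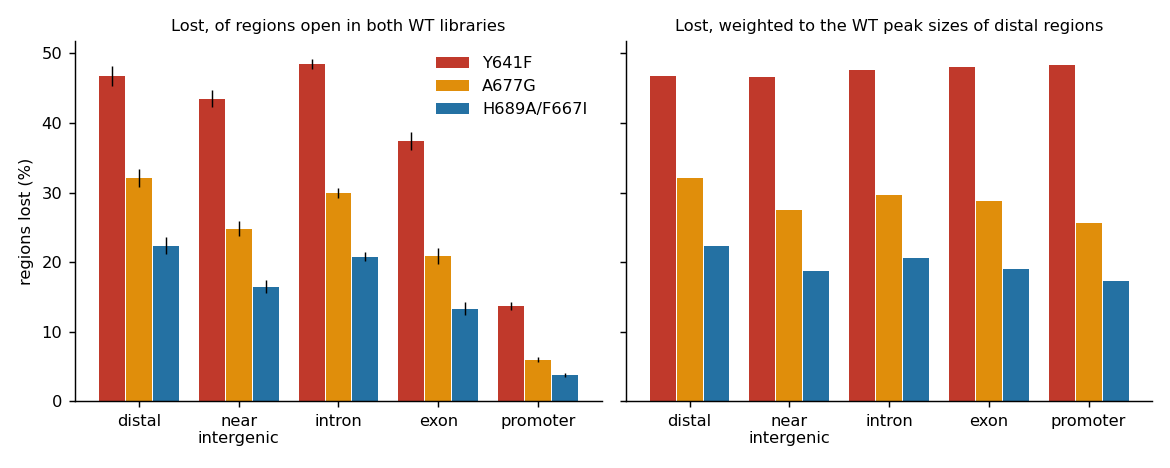
Percent of regions open in both WT libraries that had no peak in either library of a mutant, by class of region, as counted with 95% Wilson intervals (left) and after weighting each class to the WT peak sizes of distal regions in 10 strata (right). The left panel separates promoters (3.82% to 13.7%) from distal regions (22.4% to 46.8%), and the right panel brings the classes close together.

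With equal lists 1336 distal regions were open in both WT libraries and the order of the mutants was kept. Y641F lost 240 (18.0%, against 11.6% over all classes), A677G 202 (15.1%, against 6.85%) and H689A/F667I 162 (12.1%, against 6.11%).

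Gains were few with all peaks. Of 393 distal regions open in no WT library, 46 were open in both Y641F libraries (11.7%, against 8.7% over all classes), 49 in both A677G libraries (12.5%, against 12.7%) and 82 in both H689A/F667I libraries (20.9%, against 22.8%). Without a WT peak, a region met the rule of 2 libraries through mutant libraries alone, in the distal class and in all classes. These shares therefore hold only under that rule, which leaves out the distal regions with a peak in 1 library. The number of gains changed with the lengths of the lists and with the number of libraries. Without 1 library of the pairs compared it ran from 75 to 111 in Y641F, from 102 to 187 in A677G and, in LOF, from 138 to 209. Fewer libraries then have to meet the condition, so these numbers rise by construction. With equal lists 231 of 695 distal regions were gained in Y641F (33.2%, against 28.3%), 127 in A677G (18.3%, against 23.4%) and 122 in H689A/F667I (17.6%, against 21.4%).

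The regions lost in the mutants were the weaker of the WT regions. In Y641F the median WT fold was 3.76 for lost and 4.53 for retained regions, and the median width of the merged region, which grows with the libraries that hold a peak, 580 against 957 bp. Lost and retained regions of A677G had a WT fold of 3.65 and 4.44 and widths of 549 and 898 bp. Those of H689A/F667I had a WT fold of 3.61 and 4.35 and widths of 505 and 872 bp. The CTCF consensus was in 7.89% of the regions lost in Y641F and 5.16% of those retained (95% Wilson intervals 6.85 to 9.07 and 4.12 to 6.45), and in 8.29% and 6.18% in H689A/F667I (6.80 to 10.1 and 5.31 to 7.17). In A677G the shares were 6.76% and 6.01%. The intervals of lost and retained regions overlapped in A677G and H689A/F667I. Gained regions had a low median fold in the mutant, at 3.16, 3.25 and 3.33 for Y641F, A677G and LOF.

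The contrast of GOF with the other lines singled out 180 distal regions, with a peak in each of the 4 WT and LOF libraries and none in the 4 GOF libraries. They were 6.95% of the 2590 distal regions that had a peak in each WT and LOF library (95% Wilson interval 6.03 to 7.99), against 3.84% over all classes. The reverse was found for 0 of 98 distal regions, which allows a share of up to 3.06% by a floor of 3 counts (Wilson upper bound 3.77%), against 0.432% over all classes. Those 98 regions had met the rule of 2 libraries through GOF libraries alone. The count was 349 without A677G replicate 2, 395 without H689A/F667I replicate 1 and 350 without H689A/F667I replicate 2. Leaving out a library loosens the condition, so the count rises by construction. With equal lists 17 of 899 were closed in all GOF libraries (1.89%, against 0.936%) and 8 of 260 were open in them alone (3.08%, against 4.81%).

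Among the strongest of the 180, 4 were followed library by library. The region between NTRK2 and AGTPBP1 (chr9:85332529-85332845) had a fold of 5.91 and 6.55 in WT and 4.50 and 5.88 in LOF. The next lay between the zinc-finger genes ZNF536 and TSHZ3 (chr19:31054459-31054824), with a fold of 7.12 and 5.48 in WT and 4.68 and 4.71 in LOF. The choice by fold fixes that these values are high. Another lay between AADAT and GALNTL6 on chromosome 4, with a fold from 4.03 to 6.09, and the last between SLC24A2 and MLLT3 on chromosome 9, from 3.79 to 6.23. Each was 317 to 668 bp wide.

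The strongest loss in Y641F lay 81.8 kb from CRISPLD1 and 325 kb from HNF4G, which encodes a nuclear receptor of epithelial cells (chr8:75082006-75082828). Its fold was 7.39 and 6.35 in WT, 4.68 and 6.14 in A677G and, in LOF, 7.17 and 5.15, and it was open in 6 of 8 libraries. The next lay 52.0 kb from MKI67, which encodes the proliferation marker Ki-67 (chr10:128178374-128178671), with a fold of 6.56 and 6.89 in WT, 5.62 in 1 A677G library and 4.34 and 5.52 in H689A/F667I. The third was the ZNF536 to TSHZ3 region described above, which was also the strongest loss in A677G. The NTRK2 region was the second loss in A677G, and a region between ROBO2 and ROBO1, which encode receptors of the axon guidance protein Slit (chr3:78204950-78205317), was the third. That region was open in WT alone, at a fold of 6.69 and 5.12, and was also the second loss in H689A/F667I. The strongest loss in H689A/F667I lay between the cadherin genes CDH8 and CDH11 and held a CTCF consensus, with a fold of 5.77 and 6.37 in WT and 3.6 in 1 A677G library. The third, between ABI3BP and IMPG2, also held the consensus, with a fold of 6.59 and 5.23 in WT, 5.36 in 1 Y641F library and 4.70 in 1 A677G library.

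The gained regions were weaker. A region on chromosome 1 between PLA2G4A and BRINP3 (chr1:189370814-189371080) was closed in both WT libraries and open in all 6 mutant libraries, with a fold of 4.07 and 5.09 in Y641F, 4.45 and 3.99 in A677G and, in LOF, 4.31 and 4.08. In Y641F the strongest gain lay on the short arm of chromosome 22 with a fold of 5.28 and 5.93, and was also open in 1 A677G and 1 LOF library. The third, between HLX and DUSP10, reached 3.69 and 4.74 and was open in Y641F alone. In A677G the strongest lay between SORCS3 and SORCS1 and held a CTCF consensus, with a fold of 4.59 and 4.45, and was open in both LOF libraries as well (3.45 and 3.27). A gain 259 kb from KLF4, a reprogramming and epithelial factor, had a fold of 3.75 and 4.45, and 3.76 in 1 Y641F library. In H689A/F667I the strongest lay between RASSF10 and the clock gene BMAL1, with a fold of 4.82 and 3.8, and 3.76 and 3.35 in A677G. A region between AMY1C and PRMT6 (4.48 and 4.03) was open in that line alone.

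Of the 10 strongest regions open in all libraries, several lay next to centromeres or in duplicated sequence. The mitochondrial match on chromosome 17 had a fold from 17.0 to 19.9. Near-identical copies elsewhere (at least 95% identity over at least 200 bp of the window) were found for 4 of the 10, among them the region between SMN2 and SERF1A, in a known duplication of chromosome 5, with a fold from 5.97 to 7.42. Single-copy members of the 10 included a region between FAT4 and INTU (chr4:126427496-126428545), whose fold lay between 6.66 and 7.42 in all libraries. Another lay 94.2 kb from HTR1B, a serotonin receptor gene, with a fold of 7.75 and 7.42 in WT and 5.95 to 6.70 in the mutants. The last of the 10, between the cadherin genes CDH10 and CDH9 (chr5:26553102-26553496), had the largest SD of the 10 (1.98). Its fold was 9.49 and 10.7 in WT, 5.04 and 6.20 in Y641F, 5.87 and 7.29 in A677G and, in LOF, 7.37 and 9.30, so the 4 GOF libraries lay below the other 4. In all, 345 of the 6694 regions (5.15%) had a near-identical copy and 2 matched the mitochondrial genome. Of the regions with a copy that were open in both WT libraries, 33.6%, 23.7% and 11.5% were lost in Y641F, A677G and H689A/F667I, against 47.5%, 32.5% and 23% without one.

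Distal regions had the base composition of introns. The median GC content of the 300-bp windows was 47.3% for both, 65.7% for promoters and 39.7% for windows moved 5 kb away from the distal regions. The mean number of CG dinucleotides per window was 5.00 for distal regions, 4.59 for introns, 23.3 for promoters and 2.56 at 5 kb. The median GC content of the open distal regions was 46.3% and 46.2% in WT and 46.5% to 47.2% in the 6 mutant libraries. The GOF libraries were 0.42 points higher than the others, which did not pass the test (exact permutation p = 0.114, adjusted p = 0.16).

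The CTCF consensus, searched on both strands, was in 396 distal windows (5.92%, 95% Wilson interval 5.38 to 6.51) and in 0.105% of windows 5 kb away. The share was 9.67% in other intergenic regions, 6.11% in introns, 2.26% in promoters and 5.72% over all regions. Per library it ran from 4.38% in Y641F replicate 1 to 6.64% in WT replicate 2, and the GOF difference did not pass the test (5.61% against 6.16%, exact permutation p = 0.371, adjusted p = 0.371). Other short motifs were searched in the same way, and none of them contains another. CAGCTG, the E-box of basic helix-loop-helix factors, was in 18.9% of distal windows and 10.1% of windows 5 kb away. TGANTCA, the AP-1 site, was in 13.2% and 9.84%. ACATTCC, the TEAD site, was in 5.57% and 4.45%, and CCGGAAG, an ETS site, in 1.52% against 11.5% in promoters. AGATAA of GATA factors (19.6% and 20.9%), ACAATGG of SOX factors (3.32% and 5.03%), ATGCAAAT of POU factors (1.99% and 3.96%), GTTAATNAT of HNF1 (0.717% and 1.37%) and TGATTTAT of HOX factors (2.76% and 3.17%) were no more frequent in distal windows than 5 kb away. The windows 5 kb away were poorer in GC, and the part of this in the motif shares was not tested. TGACGTCA, GCGCATGCG and AAGATGGCG, the sites of CRE-binding factors, NRF1 and YY1, were in 14, 3 and 9 distal windows (0.209%, 0.0448% and 0.134%), against 1.52%, 1.88% and 1.96% of promoters. A motif match is a string in the sequence and no evidence of binding.

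Distal regions were found at a median of 152 kb from the nearest coding start, with 1219 (18.2%) over 500 kb and 418 (6.24%) over 1 Mb away. Those 50 to 100 kb away, nearest to the limit of the rule, numbered 2223 and lost 44.5%, 29.4% and 19.5% in the 3 mutants. The other intergenic regions, outside the rule because they lay within 50 kb of a coding start, lost 43.5%, 24.8% and 16.5%. From 100 to 500 kb the losses were 48.8%, 33.2% and 24.1%, and over 1 Mb 40.8%, 33.8% and 20.6%. GC content was lower at 500 kb to 1 Mb than near the limit, with medians of 42.9% and 48.5%, and the CTCF share was 3.37% and 7.38%. Beyond 1 Mb the median GC content was 43.6% and the CTCF share 5.02%.

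The regions were spread unevenly. The territory that met the rule, without assembly gaps, came to 707 Mb and held 9.47 regions per Mb. Chromosome 13 had 753 regions, 19.6 per Mb, followed by chromosomes 1 (14.4) and 6 (14), and chromosome 19 was lowest with 11 regions and 1.86 per Mb. Of the 299 bins of 5 Mb with at least 1 Mb of such territory, the 7 with most regions lay side by side on chromosome 13, from 60 to 95 Mb. This block held 639 regions (9.55% of all), at 33.5 per Mb against 8.80 elsewhere.

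Within the block, from 60 to 95 Mb, 19.1 Mb met the rule, and the rest lay in genes, near coding starts or in assembly gaps. Several of its coding genes encode neuronal adhesion proteins. The 10 coding genes nearest to most distal regions all lay in it. PCDH9, a protocadherin gene, was nearest to 111 regions, with 67 open in each WT library, 49 and 56 in Y641F, 44 and 58 in A677G and, in LOF, 60 and 67. SLITRK5, SLITRK1 and SLITRK6, which encode membrane proteins of synapse formation, were nearest to 57, 45 and 43. KLHL1 was nearest to 49, the glypican gene GPC5 to 44, and SPRY2, an inhibitor of receptor tyrosine kinase signalling, to 42. The remaining genes, given by identifier only, ENSG00000197991, ENSG00000285566 and ENSG00000237378, were nearest to 55, 38 and 35. The regions near SLITRK5 numbered 41 and 36 in WT, 20 and 33 in Y641F, 23 and 39 in A677G and, in LOF, 35 and 36, so WT and the mutants overlapped there.

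The block took a larger share of the open distal regions in all 6 mutant libraries than in WT. The block held 7.72% and 7.51% of the open distal regions in WT, 12.6% and 11.3% in Y641F, 9.38% and 8.96% in A677G and, in LOF, 8.83% and 9.32%. Of its regions open in both WT libraries 29.4%, 25.6% and 16.8% were lost in Y641F, A677G and H689A/F667I, against 48.0%, 32.5% and 22.8% elsewhere. Of its 106 regions open in no WT library, 17, 15 and 18 were gained in Y641F, A677G and LOF, against 29, 34 and 64 of 287 elsewhere. The 106 and the 287 had met the rule of 2 libraries through mutant libraries alone. With equal lists it held 31 of 231, 10 of 127 and 13 of 122 gains. Block regions differed in sequence as well, with a median GC content of 43.6% against 46.9% and the CTCF consensus in 1.88% against 6.34%. Their median fold was low, at 3.28 to 3.44 per library against 3.77 to 3.98 elsewhere. At matched fold (3.8 to 4.2) and width (under 400 bp), peaks of all classes in the block had a higher −log10 p than those elsewhere in all 8 libraries, with medians of 5.89 against 5.74 in WT replicate 1 and 6.59 against 5.89 in Y641F replicate 1. These medians rest on 27 to 48 block peaks per library, and the part of this difference in the density was not tested. Leaving out the block changed the gains in Y641F from 46 to 29 and left the GOF difference in number at the same exact p of 0.0286.

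**Figure D4:**
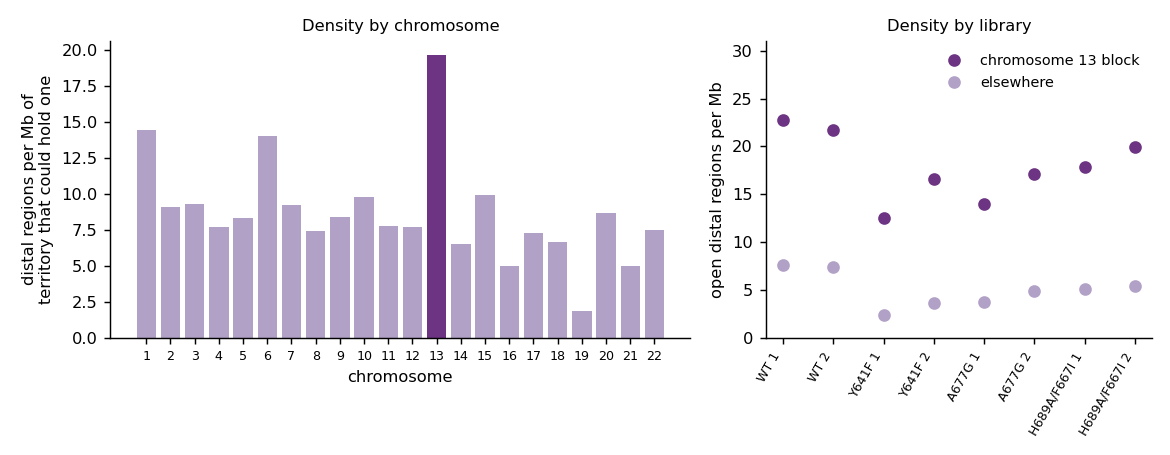
Left, distal regions per Mb of sequence that met the rule, by chromosome. Right, open distal regions per Mb in the block of chromosome 13 and elsewhere, for each library. Chromosome 13 stands at 19.6 per Mb, and the block is above the rest in all 8 libraries, from 12.5 to 22.8 against 2.41 to 7.55 per Mb.

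Distal regions also formed close groups. With a cluster taken as at least 3 regions less than 10 kb apart, there were 180 clusters with 630 regions (9.41% of all), 35 of them in the chromosome 13 block. Most held 3 regions (129 clusters), and 19 held 5 or more. Counted within single libraries, WT had 117 and 114 clusters, Y641F 19 and 37, A677G 34 and 45 and H689A/F667I 57 and 59. Over the same libraries the open distal regions ran from 1894 to 5623, and the part of this in the cluster counts was not tested. Regions in clusters were lost in 35.2%, 24.5% and 16.4% of cases in Y641F, A677G and H689A/F667I, against 48.0%, 32.8% and 23% outside.

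The biggest cluster had 12 regions over 67.7 kb (chr6:28709469-28777205), between SCAND3 and TRIM27 in the extended MHC region. It had 12 and 12 open regions in WT, 10 and 11 in Y641F, 8 and 11 in A677G and, in LOF, 10 and 10. On tRNA genes lay 9 of the 12, and 5 of the 7 in a neighbouring cluster of 34.9 kb (chr6:28789057-28823931). A cluster near the centromere of chromosome 16 held 8 regions, 7 of them with near-identical copies. Clusters of 6 near the centromeres of chromosomes 4 and 10 were open at 5 or 6 and at 3 to 5 regions per library. A cluster of 7 lay between KCNU1 and ZNF703, a transcriptional corepressor gene of breast tissue (chr8:37135614-37163596), with 5 and 7 open regions in WT, 1 and 3 in Y641F, 4 and 5 in A677G and, in LOF, 2 and 3. A further 2 clusters of 7 lay in the chromosome 13 block, and a cluster of 5 between RHOU and RAB4A on chromosome 1.

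The tRNA genes, short genes transcribed by RNA polymerase III from promoters inside the gene, are not part of the GENCODE set that defined the regions, so regions on them counted as intergenic. In the RefSeq annotation of GRCh38.p14, 57 distal regions overlapped a tRNA gene, 40 of them on chromosome 6. Of the 57, 57 and 55 were open in WT, 46 and 49 in Y641F, 40 and 44 in A677G and, in LOF, 50 and 54. The 2 A677G libraries were lowest, whereas among the other distal regions Y641F was lowest. In all 8 libraries 40 of the 57 were open (70.2%), against 16.5% of the other distal regions. Of 55 open in both WT libraries, Y641F lost 5, A677G lost 11 and LOF lost 2 (9.09%, 20% and 3.64%, against 47.2%, 32.2% and 22.6% of the other distal regions). Their median width was 1157 bp, against 669 bp over all distal regions, their median −log10 p 6.74 to 9.58 per library against 5.19 to 5.67, and their median fold 4.03 to 4.46 against 3.73 to 3.94. GC content was nearly the same (47.1% and 46.5%), and 6 of the 57 had a near-identical copy. The losses of the tRNA regions were not matched for WT peak size. In strata 9 and 10 of WT size, the largest, all distal regions lost 12.6% and 1.86% in Y641F. They lost 3.51% and 0.619% in A677G and, in LOF, 0.825% and 0.206%.

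**Figure D5:**
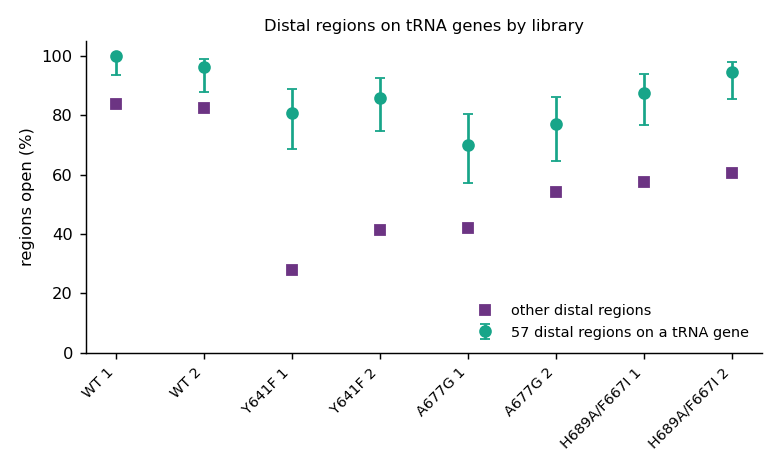
Percent of the 57 distal regions on a tRNA gene that were open in each library, with 95% Wilson intervals, and percent of the other distal regions. The tRNA regions are above the others in each library, from 70.2% to 100% against 27.8% to 83.9%.

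The regions had 2215 coding genes as nearest neighbours, 939 of them with a single region and 99 with 10 or more. Nearest genes were counted on 4 lists. Of 60 developmental factors with known long-range enhancers, 37 were nearest to 199 regions, and of the 144 open in both WT libraries 65, 51 and 40 were lost in Y641F, A677G and H689A/F667I (45.1%, 35.4% and 27.8%, against 46.8%, 32.0% and 22.4% of all distal regions). DACH1, an eye and limb factor in the chromosome 13 block, had 24 regions, with 19 and 13 open in WT, 10 and 12 in Y641F, 10 and 12 in A677G and, in LOF, 13 and 15. NR2F2, a nuclear receptor of vessel and organ development, had 20, with 18 and 18 in WT, 7 and 8 in Y641F, 14 and 10 in A677G and, in LOF, 11 and 16. SOX9, which directs cartilage and testis formation from a gene desert, had 11, with 10 and 11 in WT, 5 and 6 in Y641F, 5 and 8 in A677G and, in LOF, 6 and 6. All 6 mutant libraries were below WT at NR2F2 and SOX9, and 1 WT library overlapped the LOF libraries at DACH1. The mutant libraries were also below WT over all distal regions, with 28.3% to 60.9% open against 84.0% and 82.5%, and no difference of these genes from that was tested.

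Of 27 kidney development regulators, 19 were nearest to 67 regions. Losses among the 44 open in both WT libraries were 16, 10 and 7 in Y641F, A677G and H689A/F667I (36.4%, 22.7% and 15.9%, against 46.8%, 32.0% and 22.4% of all distal regions). BMP7, a growth factor of nephron progenitors, had 14 regions, with 14 and 11 open in WT, 3 and 7 in Y641F, 7 and 11 in A677G and, in LOF, 7 and 8. GATA3, a factor of the nephric duct, had 13, with 11 and 10 in WT, 6 and 8 in Y641F, 6 and 8 in A677G and, in LOF, 9 and 10. PAX2, which specifies the kidney lineage, had 6, with 5 and 5 in WT, 3 and 2 in Y641F and 4 in each other library. Of 24 neuronal and adrenal identity factors, 23 of them in the annotation, 6 were nearest to 9 regions. Of the 8 open in both WT libraries, 7, 4 and 5 were lost in Y641F, A677G and H689A/F667I, and none of the 9 was open in all libraries. Over all distal regions 46.8%, 32.0% and 22.4% were lost and 17.0% were open in all libraries, and no difference from these shares was tested.

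The last list was the study's own set of 108 GOF targets, of which 37 were nearest to 104 distal regions. That list was drawn partly from these libraries and is not independent evidence of direction. Of 71 regions open in both WT libraries 37, 21 and 13 were lost in Y641F, A677G and H689A/F667I (52.1%, 29.6% and 18.3%, beside 46.8%, 32.0% and 22.4% over all distal regions). DSC3, a desmosomal cadherin gene, had 18 regions, with 15 and 8 open in WT, 4 and 5 in Y641F, 6 and 9 in A677G and, in LOF, 12 and 9, so WT and the mutants overlapped. At PPARGC1A, a coactivator of mitochondrial genes, with 4 regions, 3 and 2 were open in WT, 0 and 1 in Y641F, 0 and 0 in A677G and, in LOF, 3 and 2. At RAI14, with 7 regions, 6 and 6 were open in WT, 0 and 1 in Y641F, 2 and 4 in A677G and, in LOF, 3 and 4. Other targets did not show this. TENM4 had 8 regions, with 5 and 8 open in WT, 2 and 4 in Y641F, 4 and 7 in A677G and, in LOF, 5 and 6. FAM83B had 3, with 2 and 2 in WT, 2 and 3 in Y641F, 3 and 2 in A677G and, in LOF, 3 and 3. The genes shown were chosen after their values were seen.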

How the data were processed

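ATAC-Seq peak lists of 8 libraries, 2 per line, were used. As deposited by the authors, reads had been trimmed with Trim Galore 0.6.5 and aligned to GRCh38/hg38 with BWA 0.7.17, duplicates had been removed, and broad peaks had been called in each library with MACS2 2.2.7.1. The submitters' processing notes also name deepTools 3.5.1. The deposited values are the fold of pileup over local background, a ratio within the library, and the −log10 p and −log10 q of each peak by MACS2, with no scaling between libraries. The deposited score, made by MACS2 as a multiple of −log10 q, was not used. Read totals are not given in the sources used here, so a count test across libraries, which the study's methods would call for, could not be made.

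Peaks on chromosomes 1 to 22 that overlapped by at least 1 bp were merged with Python 3.11.15, numpy 2.4.6 and pandas 2.3.3, and classed by GENCODE 44. Gene starts are those of coding transcripts. Nuclear tRNA genes came from RefSeq (GRCh38.p14), and coordinates and sequences from hg38 (samtools 1.23.1). Near-identical copies (95% identity over 200 bp) and mitochondrial matches (80% over 100 bp) were found with blastn 2.17.0. GOF libraries were compared with WT and LOF libraries by exact two-sided permutation tests that listed all assignments in Python, adjusted by Benjamini-Hochberg over 7 measures. Shares have 95% Wilson intervals (scipy 1.17.1). Equal lists hold the peaks of highest −log10 p. Scripts were tested on simulated lists.

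The regions named are the 10 open in all libraries with the highest mean rank of fold, the 5 with the highest mean fold among those closed in all GOF libraries, the 3 strongest lost and gained per mutant, the 10 biggest clusters and the 10 genes nearest to most regions. Within the gene lists, genes were chosen for the text after their values were seen. The regions and lists were chosen with earlier results of these data known, and the tRNA group and the chromosome 13 block after the values were seen. A few of the regions, clusters and sequences that this rule names are not reported here.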

Additional observations from a re-analysis of the deposited data

How the results depend on the processing

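The GOF differences in number, width, fold, −log10 p and CTCF share kept their direction under all alternatives run, and no alternative gave an adjusted p below 0.0667. With equal peak numbers the difference in number was -0.058 (exact permutation p = 0.229). The cut itself raised the width, fold and −log10 p of the longer lists, so the differences in these are not read as a test. The difference in distal share was reversed with equal peak numbers (0.0491 points). The difference in GC was reversed with equal peak numbers (-0.0406) and with −log10 q of at least 5 (-1.02). With equal peak numbers the shares lost were 18.0%, 15.1% and 12.1% in Y641F, A677G and H689A/F667I, 231 and 127 regions were gained in Y641F and A677G, 17 were closed and 8 open in GOF alone, and 34 clusters were left. With −log10 q of at least 5, A677G lost 44.2% and H689A/F667I 32.4%, gains were 6, 6 and 17, 42 regions were closed in GOF alone and 16 clusters were left. The margin over introns was then -7.45, -0.72 and 0.047 points for Y641F, A677G and LOF. Asking peaks to cover 50% of a region gave losses of 62.3%, 48.6% and 36.2% and 113 clusters. Asking for at least 3 libraries gave losses of 37.5%, 20.2% and 8.87%, a margin over introns of -0.315 points in H689A/F667I, gains of 25 in Y641F and 42 in H689A/F667I, and 88 clusters. Beyond 100 kb, 111 regions were closed in GOF alone, with 114 clusters. Keeping out only protein-coding genes gave gains of 76 in A677G and 146 in H689A/F667I, 292 regions closed in GOF alone and 349 clusters. Gaps under 20 kb and 5 kb gave 411 and 56 clusters. Without the chromosome 13 block, chosen after seeing the data, 29 regions were gained in Y641F. The cause of these shifts was not tested.

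Leaving out each library in turn gave losses of 42.5% to 66.6% in Y641F, 24.5% to 50.3% in A677G and 12% to 35.8% in H689A/F667I, and gains of 45 to 111, 48 to 187 and 81 to 209. The margin over introns ran from -4.99 to -1.67, from -0.00228 to 2.18 and from -0.394 to 1.73 points. Regions closed in GOF alone numbered 191 to 395, the reverse 0 to 4, and clusters 121 to 174. Leaving out a library loosens the conditions for lost, gained and closed regions, so part of these ranges is fixed by construction. The GOF difference in number ran from -0.92 to -0.62, with exact permutation p from 0.0286 to 0.0571.

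Replicates of the same number did not deviate together in the correlations of the replicate differences, which ran from -0.0385 to 0.00195. The labels give only a replicate number, and these correlations cannot show whether replicates of a number were prepared together. Open distal regions were fewer in replicate 1 than in replicate 2 of each mutant line (1894 and 2798, 2837 and 3649, 3860 and 4078). In WT the order was the other way (5623 and 5525). With the replicate block the GOF difference in number was -0.79 with an exact permutation p of 0.0556, the smallest that 36 assignments allow. Read depth is unknown, and a region without a peak may hold reads.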

Other observations

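Shares lost were counted by chromosome, with no test. Among regions open in both WT libraries, Y641F lost 37.2% on chromosome 13 and 40.0% on chromosome 6, against 46.8% over all chromosomes. On the same chromosomes A677G lost 31.4% and 31.8%, against 32.0%. Chromosome 19, with 9 such regions, had shares of 77.8%, 22.2% and 11.1% for Y641F, A677G and LOF, and the last pair lay below the shares over all chromosomes (32.0% and 22.4%).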
